A study of Mus musculus with 4 samples.

Results

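The 7 genes of MHC class II presentation described here were H2-Aa, H2-Ab1, H2-Eb1, Cd74, Ciita, H2-DMa and H2-DMb1, out of 33696 gene features, chosen by name. Their UMIs (unique molecular identifiers, each standing for 1 counted transcript) were read in all 4 matrices, by cell class, region and library. Nuclei came from the mouse brain at 21 days post-injury (dpi) with a photothrombotic (PT) lesion, in which light shone on the cortex activates a dye in the blood and closes the vessels there. The library labelled control came from wildtype mice and the library labelled Cxcl12-cKO from mice carrying Col1a2(creER) and Cxcl12(flox), in which the inducible Cre is driven by a collagen promoter in fibroblasts, so that deletion was aimed at fibroblasts and not at immune cells. Each genotype was 1 library of pooled nuclei from 1 male and 1 female mouse, with lesional nuclei mixed at 75% and nuclei of the surrounding parenchyma at 25% under separate multiplexing tags. The study's methods give its mice in general as young adults and adults, with no age for these libraries alone. Across all 4 matrices 11208 member UMIs were counted, of which 10036 lay in the nuclei kept after filtering.

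MHC class II molecules are pairs of an alpha and a beta chain that carry peptides from engulfed proteins to the cell surface, where CD4 T cells read them. H2-Aa and H2-Ab1 encode the alpha and beta chains of the I-A molecule, and H2-Eb1 encodes the beta chain of I-E. Cd74 encodes the invariant chain, which holds new class II molecules and guides them to endosomes. H2-DMa and H2-DMb1 encode the chains of H2-DM, which helps exchange the leftover piece of the invariant chain for peptide. Ciita encodes the coactivator that switches the family on, and interferon-γ induces it. Dendritic cells carry class II constitutively, whereas microglia, the resident macrophages of the brain, carry little of it at rest.

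The promoters of the family are shown because class II genes share short boxes upstream of their starts. The Y box, bound by NF-Y, is one of them, and its letters TGATTGG (or CCAATCA on the other strand) were searched in the 250 bases before each start in RefSeq promoters of the GRCm38.p6 build, a different build from that of the counts. No other motif was searched. The motif was in 7.23% of the 32851 promoter windows. Windows were found for 4 of the 7 members. The motif stood on the gene's strand in those of H2-Aa, H2-Eb1 and H2-DMb1, and in neither of the 2 windows of H2-DMa. These 2 windows lie at different starts, and whether either start is used in these nuclei was not tested. Their lack of the motif therefore does not show that H2-DMa has no Y box. It was also in all 4 windows found among other class II genes (H2-DMb2, H2-Oa, H2-Ob and H2-Eb2). The 150 bases before the start are printed 5′ to 3′ on the gene's strand, with the motif in capitals, for H2-Aa (chr17:34287824-34287973, minus strand), H2-Eb1 (chr17:34305717-34305866, plus strand), H2-DMb1 (chr17:34153041-34153190, plus strand) and the first window of H2-DMa (chr17:34122682-34122831, plus strand):
H2-Aa: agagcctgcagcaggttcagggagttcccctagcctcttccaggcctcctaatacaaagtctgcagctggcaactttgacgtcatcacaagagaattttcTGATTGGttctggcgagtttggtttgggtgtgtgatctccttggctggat
H2-Eb1: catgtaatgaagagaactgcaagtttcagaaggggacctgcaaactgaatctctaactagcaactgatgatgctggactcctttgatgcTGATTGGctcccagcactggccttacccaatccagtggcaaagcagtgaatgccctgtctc
H2-DMb1: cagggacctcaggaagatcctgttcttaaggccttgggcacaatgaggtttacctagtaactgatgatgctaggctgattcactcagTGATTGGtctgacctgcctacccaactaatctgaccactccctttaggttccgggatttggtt
H2-DMa: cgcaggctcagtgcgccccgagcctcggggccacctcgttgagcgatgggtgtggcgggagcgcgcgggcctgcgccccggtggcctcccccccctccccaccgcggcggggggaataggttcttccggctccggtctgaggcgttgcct
The motif began 50 bases before the start of H2-Aa, 61 before that of H2-Eb1 and 63 before that of H2-DMb1. A match in letters is a description of the window and not a measured binding site.

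The filters left 8095 and 7933 nuclei of the lesion and 2877 and 2838 of the parenchyma in the libraries labelled control and Cxcl12-cKO. Median depth was 2962 and 2975 UMIs in the lesion and 15915 and 16648 in the parenchyma. The libraries shared 47 barcode sequences of the 11637 in the smaller one. Cxcl12, the targeted gene, was higher under the knockout label in lesional fibroblast-like nuclei, at 215 CPM (UMIs per 1000000 UMIs, 208 to 222) against 106 CPM (101 to 111) under the control label. Counts near the 3′ end do not show whether the floxed part was missing from these transcripts. The groups are therefore named by their labels, and every direction below is between libraries as labelled. With 1 library per genotype there was no replicate and no test of any difference. All intervals are exact 95% intervals and cover counting error only. Pairs of values are given for the library labelled control first and for the library labelled Cxcl12-cKO second. Class names ending in "like" rest on marker genes, and the clusters were made without the class II and interferon-γ genes.

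Most lesional member UMIs lay in a small number of immune nuclei. The kept lesional nuclei held 4810 and 3618 member UMIs. The 1% of nuclei with the most, 81 and 79 nuclei, held 55.8% and 59.0% of them. A member UMI was found in 17.9% and 15.5% of lesional nuclei, and 68.5% and 74.2% of those nuclei had exactly 1. Cd74 gave the most UMIs, with 1977 and 1397, followed by H2-Aa with 666 and 465, H2-Ab1 with 582 and 395 and H2-Eb1 with 580 and 378. Ciita had 386 and 291, H2-DMa 375 and 429, and H2-DMb1 244 and 263. The H2-DM pair was thus the exception to a higher count in the library labelled control. These totals are counts near the 3′ end and do not rank transcript levels between genes.

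By class, 59.1% (57.7% to 60.5%) and 50.1% (48.4% to 51.7%) of lesional member UMIs lay in myeloid-like nuclei, which were 1568 and 2030 nuclei. The order of these shares turned once the dendritic-like nuclei described below were counted with them (67.5% and 69.8%), and also without the percentile filter (69.2% and 71.7%), with class II genes kept in the clustering (68.5% and 70.3%) and without the highest doublet scores (75.1% and 77.6%). These nuclei carried the macrophage genes the class was named by, with Ptprc UMIs in 77.2% of them against 9.26% of other lesional nuclei and Csf1r UMIs in 49.5% against 3.75%. Within the immune nuclei, joint subclustering set apart a monocyte-like subcluster (53 and 65 nuclei) and a dendritic-like subcluster (41 and 66 nuclei). Together these 94 and 131 nuclei held 44.2% and 50.0% of all lesional member UMIs. Fibroblast-like nuclei (4285 and 4151) held 20.2% and 17.4%.

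**Figure D1:**
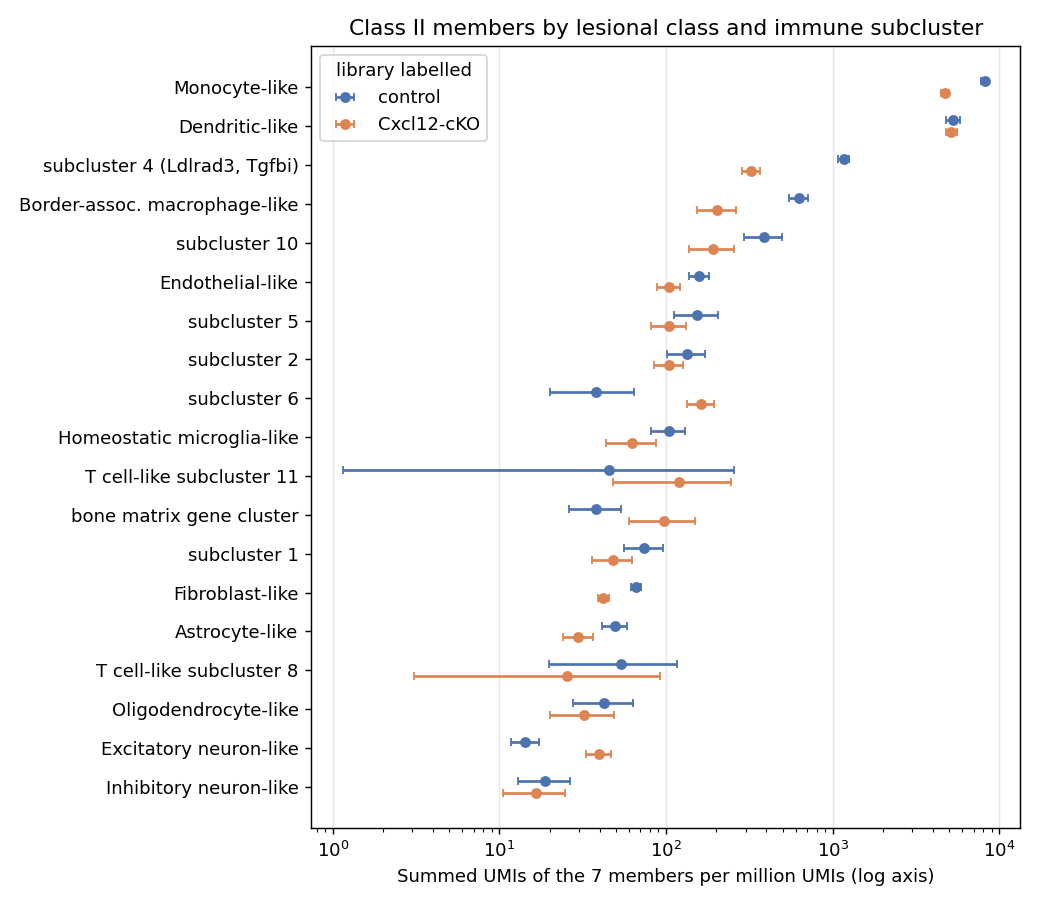
Summed UMIs of the 7 members as CPM (log axis) in each lesional class and immune subcluster, with points for the libraries labelled control and Cxcl12-cKO and bars for exact 95% Poisson intervals of the counts. Monocyte-like and dendritic-like nuclei stand above all others in both libraries. Excitatory neuron-like nuclei are lowest under the control label (14.3 CPM) but not under the label Cxcl12-cKO (39.5 CPM).

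The highest summed level of members under the control label was that of monocyte-like nuclei, which had 8185 CPM (7803 to 8582) and 4725 CPM (4449 to 5015), from 1720 and 1087 UMIs. They were named by Ly6c2, Ccr2, Plac8 and Fn1, and a Ccr2 UMI, of the chemokine receptor of circulating monocytes, was in 22.03% of them against 3.83% of the other immune nuclei. The level was carried by few nuclei. UMIs of 5 or more members were found in 12 and 10 nuclei, which held 1606 and 1027 of the UMIs, and the single highest nucleus in each library held 351 and 374. In those nuclei 2.67% and 2.22% of all UMIs came from the 7 members, against 0.0761% and 0.0327% in the other monocyte-like nuclei. Their median depth was 3836 and 4023 UMIs. UMIs of the dendritic markers were in 10 of those 12 and 6 of those 10 nuclei, at 514 and 800 CPM against 260 and 190 CPM in the other monocyte-like nuclei and 2987 to 5317 CPM in dendritic-like nuclei. Their monocyte markers were at 1361 and 1600 CPM against 721 and 1262 CPM, so both sets of markers were higher in the nuclei that carried the family. Their share of ribosomal protein UMIs was 5.10% and 7.09% against 10.5% and 9.61%. This subcluster as a whole also had 8.97% and 9.11% of its UMIs in ribosomal protein genes, against 0.222% to 0.975% in the other immune subclusters, and the part of that difference in the class II level was not tested.

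Dendritic-like nuclei were below them under the control label and above them under the label Cxcl12-cKO, at 5264 CPM (4766 to 5801) and 5151 CPM (4782 to 5540), from 408 and 723 UMIs. Their defining genes included Flt3, a dendritic growth factor receptor found in 54.2% of them against 0.527% of the other immune nuclei, and Zbtb46, a transcription factor of classical dendritic cells found in 57.9% against 2.58%. Among the 10 leading genes were Ccr7 and Il12b. Of all lesional classes these nuclei were the most uniform in carrying the family. At least 3 members were found together in 61.0% (44.5% to 75.8%) and 51.5% (38.9% to 64.0%) of them, against 34.0% and 16.9% of monocyte-like nuclei. Of 107 dendritic-like nuclei, 105 had been placed with T cell-like nuclei in the first clustering, and the T cell-like subclusters themselves held 7 and 9 member UMIs in 97 and 94 nuclei.

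The next level was that of immune subcluster 4 (274 and 348 nuclei, unnamed), which was led by Ldlrad3, Tgfbi, Gda, Ciita and Kynu, at 1162 CPM (1072 to 1257) and 322 CPM (284 to 364). Border-associated macrophage-like nuclei (178 and 136), named by Mrc1, F13a1 and Cd163 among others, had 624 CPM (548 to 709) and 202 CPM (153 to 262). The counting intervals of this pair of groups did not overlap in either library, whereas those of monocyte-like and dendritic-like nuclei overlapped under the label Cxcl12-cKO. The homeostatic microglia-like nuclei (367 and 291), with P2ry12 UMIs in 52.3% of nuclei against 21.2% of the other immune nuclei, had 104 CPM (81.5 to 131) and 62.9 CPM (43.8 to 87.4). UMIs of 3 or more members were found together in 0.817% of the control nuclei and in 0 of 291 Cxcl12-cKO nuclei, which allows a share of up to 1.26%. For immune subcluster 4 the shares were 16.8% and 5.75%, and for border-associated macrophage-like nuclei 14.6% and 4.41%. Lesional excitatory neuron-like nuclei, given for comparison, had 0.394% and 0.844%, at medians of 13947 and 12781 UMIs against 1738 and 1700 in the microglia-like nuclei.

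**Figure D2:**
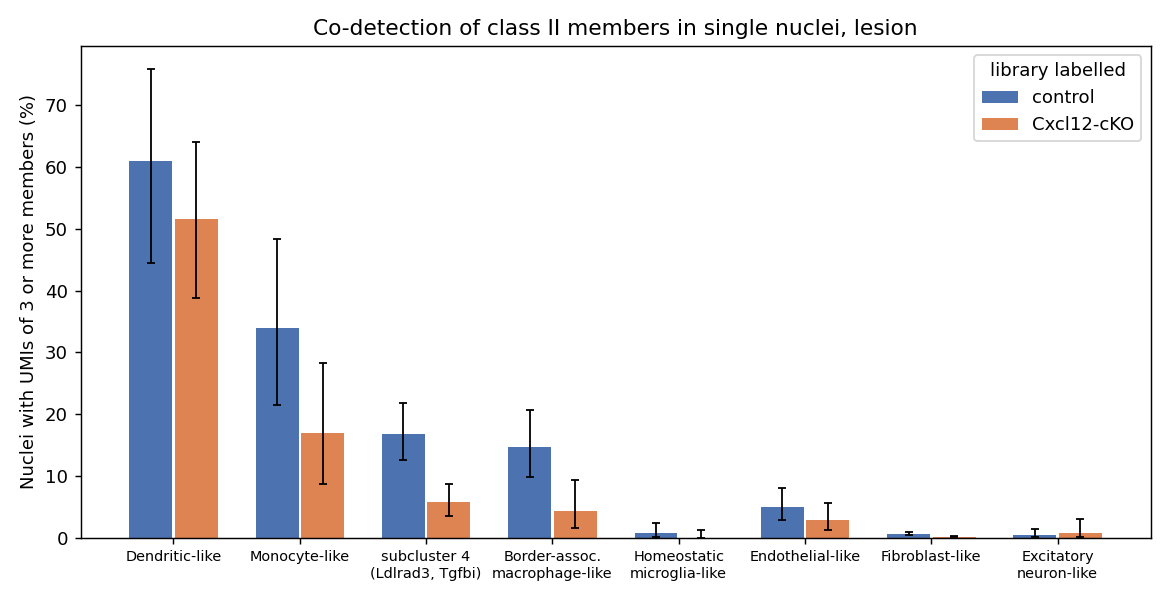
Percent of lesional nuclei with UMIs of 3 or more of the 7 members, by class or subcluster, with bars for the libraries labelled control and Cxcl12-cKO and lines for exact Clopper-Pearson 95% intervals. The shares are 61.0% and 51.5% in dendritic-like nuclei and under 1% in microglia-like, fibroblast-like and excitatory neuron-like nuclei.

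The mix of members differed between classes. Ciita made up 11.8% (10.0% to 13.9%) of member UMIs in dendritic-like nuclei, 14.4% (12.2% to 16.9%) in immune subcluster 4 and 12.5% (8.93% to 16.8%) in border-associated macrophage-like nuclei, but 1.46% (1.05% to 1.98%) in monocyte-like nuclei. Cd74 made up 52.7% (50.8% to 54.5%) in monocyte-like nuclei and 36.6% (33.8% to 39.5%) in dendritic-like nuclei. Monocyte-like nuclei thus held a smaller part of coactivator and a larger part of invariant chain UMIs than dendritic-like nuclei did. H2-DMa was 1.68% and 2.10% of member UMIs in dendritic-like and monocyte-like nuclei but a larger part in lesional excitatory neuron-like nuclei, with 46 of 109 and 21 of 125 member UMIs in the libraries labelled control and Cxcl12-cKO. Without the 2 highest nuclei of each library these were 46 of 97 and 20 of 38. Both libraries were summed for the other shares, and a few nuclei weigh heavily in each.

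**Figure D3:**
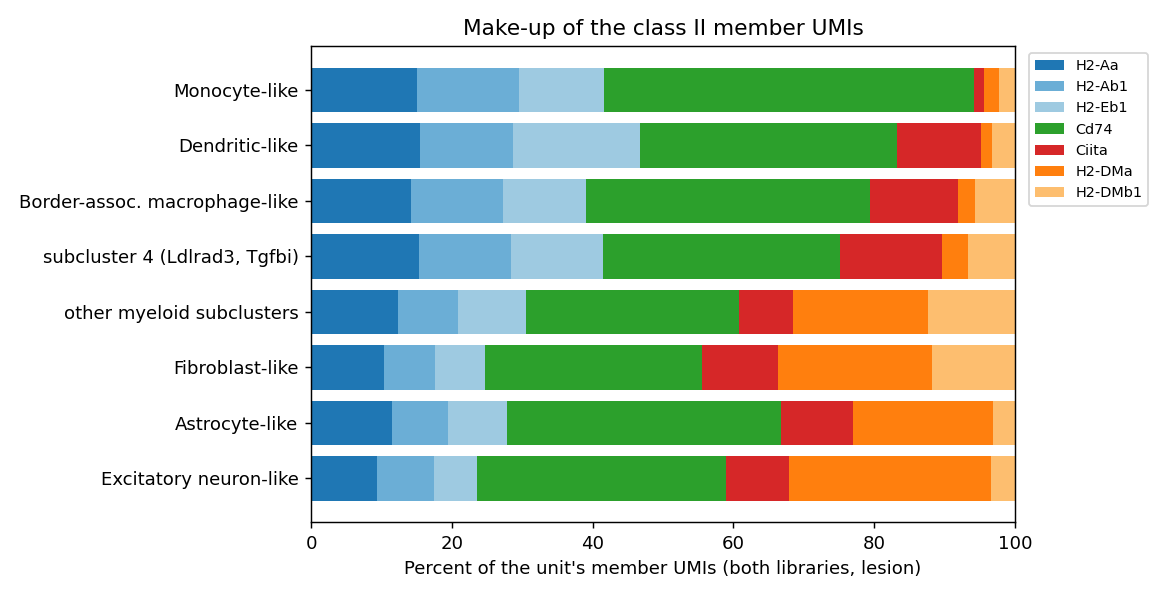
Percent of member UMIs contributed by each of the 7 members, with the libraries and all nuclei of a lesional class or subcluster summed. Ciita is 11.8% in dendritic-like and 1.46% in monocyte-like nuclei, and H2-DMa is 2.10% in monocyte-like and 28.6% in excitatory neuron-like nuclei, where 2 nuclei hold 87 of the 234 UMIs.

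Between libraries, the summed members were lower under the label Cxcl12-cKO in lesional myeloid-like nuclei, at 745 CPM (718 to 773) and 322 CPM (307 to 337), a log2 ratio of −1.21 (−1.30 to −1.13). Of these nuclei, 1073 and 1490 lay outside the monocyte-like, dendritic-like and border-associated macrophage-like subclusters and immune subcluster 4. They had 114 CPM (102 to 128) and 98.3 CPM (89.2 to 108), with intervals that overlap. A member UMI was in 15.75% and 16.38% of them. In lesional myeloid-like nuclei as a whole, 6 of the 7 members were at least 1.5-fold lower and none was at least 1.5-fold higher. Over all 11421 genes with at least 50 UMIs in these nuclei, 3.73% were lower and 2.98% were higher by that much. Over the alternatives tried, the log2 ratio of the sum ran from −1.87 in female nuclei to −0.67 in male nuclei. The median log2 ratio was −1.30 over the members and −0.02 over all those genes.

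The genes of the I-A and I-E chains moved by similar amounts. H2-Aa had 415 and 264 UMIs, at 109 and 46.9 CPM and a log2 ratio of −1.21 (−1.44 to −0.99). H2-Ab1 had 393 and 224 UMIs, at 103 and 39.8 CPM and a log2 ratio of −1.37 (−1.62 to −1.13). H2-Eb1 had 354 and 197 UMIs, at 92.7 and 35.0 CPM and a log2 ratio of −1.41 (−1.67 to −1.15). The intervals of these log2 ratios overlap, and counting error does not separate the chains.

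The invariant chain and the coactivator lay in the same range. Cd74 had 1306 and 784 UMIs, at 342 and 139 CPM and a log2 ratio of −1.30 (−1.43 to −1.17). Ciita had 165 and 89 UMIs, at 43.2 and 15.8 CPM and a log2 ratio of −1.45 (−1.84 to −1.07).

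The H2-DM genes were the exceptions. H2-DMb1 was lower by less, with 119 and 106 UMIs, 31.2 and 18.8 CPM and a log2 ratio of −0.73 (−1.12 to −0.34). H2-DMa had 92 and 147 UMIs, at 24.1 and 26.1 CPM and a log2 ratio of 0.12 (−0.27 to 0.51), an interval that spans 0 and does not reach a 1.5-fold difference downwards. In the libraries as a whole, the chains of this heterodimer thus differed from each other in their ratio between libraries. Between the males they differed less, as given by mouse below. H2-DMb1 has a near-identical neighbour, H2-DMb2 (13 and 11 UMIs), and reads of the pair may have been split or dropped in counting.

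**Figure D4:**
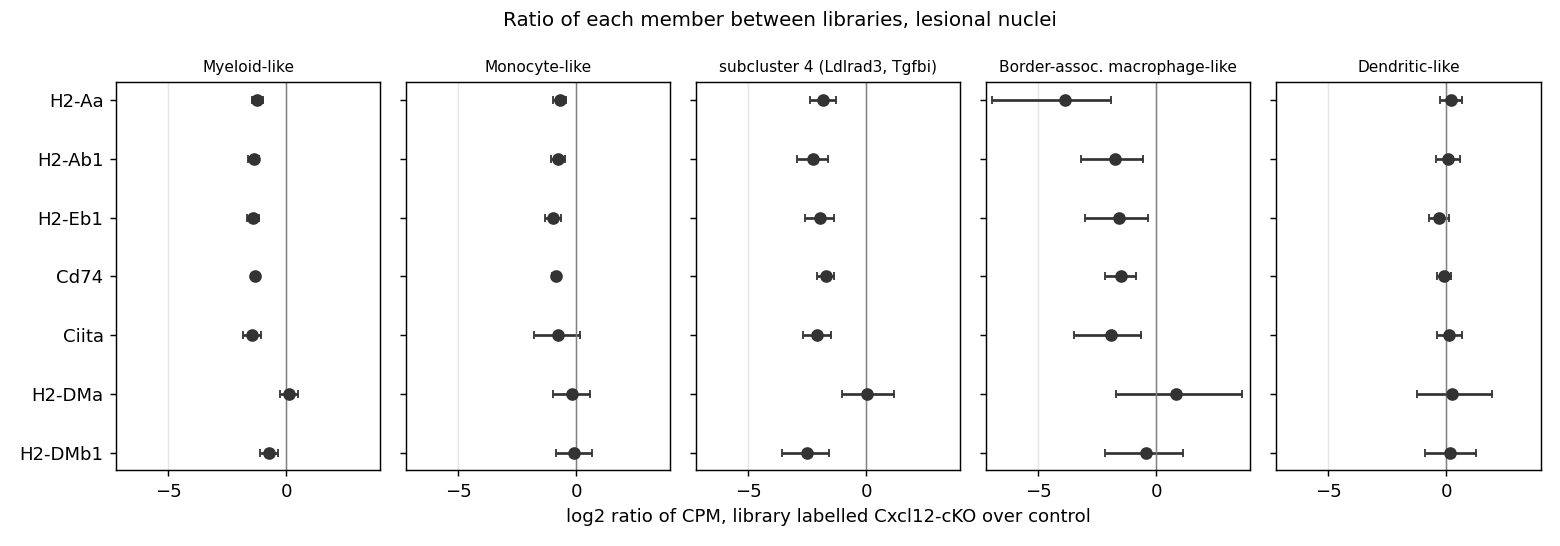
Log2 ratio of CPM for each member, library labelled Cxcl12-cKO over library labelled control, in lesional myeloid-like nuclei, 3 of its subclusters and dendritic-like nuclei, with exact 95% intervals. In myeloid-like nuclei the ratios run from −1.45 for Ciita to 0.12 for H2-DMa, and in dendritic-like nuclei every interval includes 0.

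A member UMI was found in 24.8% (22.7% to 27.0%) and 19.95% (18.2% to 21.8%) of lesional myeloid-like nuclei, at medians of 2071 and 2278 UMIs. In lesional excitatory neuron-like nuclei the shares were 18.0% and 15.2%, at medians of 13947 and 12781 UMIs. After each nucleus was thinned to 1000 UMIs, the myeloid-like shares were 16.5% (14.6% to 18.4%) and 10.0% (8.72% to 11.5%), with 91 and 115 nuclei left out, and the neuron-like shares were 1.18% (0.436% to 2.56%) and 3.39% (1.48% to 6.57%). At equal depth the myeloid-like shares were thus above the neuron-like shares, and the myeloid-like share labelled Cxcl12-cKO was the lower one. In homeostatic microglia-like nuclei alone the thinned shares were 6.7% (4.32% to 9.95%) and 5.3% (2.95% to 8.80%). The second of these intervals overlaps that of neuron-like nuclei under the same label. The source of the member UMIs in neuron-like nuclei was not tested.

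The difference between libraries was not the same in every immune subcluster. Among the subclusters that were lower under the label Cxcl12-cKO it was largest in immune subcluster 4, with a log2 ratio of −1.85 (−2.07 to −1.64), where Ciita had 93 and 33 UMIs (−2.07, −2.69 to −1.49) and H2-DMa 13 and 20 UMIs (0.04, −1.04 to 1.17). In that subcluster 5.3% of 4982 genes with at least 50 UMIs were at least 1.5-fold lower and 5.94% as much higher. Border-associated macrophage-like nuclei had a ratio of −1.63 (−2.07 to −1.21), and H2-Aa there had 40 and 2 UMIs. The monocyte-like ratio was −0.79 (−0.90 to −0.68), and −1.10 (−1.25 to −0.95) once the 2 nuclei with the most member UMIs were left out of each library. Homeostatic microglia-like nuclei had −0.73 (−1.35 to −0.13) on only 73 and 35 UMIs.

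Dendritic-like nuclei showed no such difference, with a log2 ratio of −0.03 (−0.21 to 0.15). H2-Aa had 57 and 118 UMIs, or 736 and 841 CPM, and Ciita 45 and 89 UMIs, or 581 and 634 CPM. Cd74 had 154 and 260 UMIs, or 1987 and 1852 CPM. None of the 7 intervals excluded 0. Without the 2 nuclei with the most member UMIs in each library the ratio of the sum was −0.27 (−0.48 to −0.06), so this near equality rests partly on those nuclei. It also depends on the subclustering. At the lower resolution of 0.5 the subcluster that took the dendritic-like name had only 10 and 22 nuclei, at 2054 and 488 CPM. The monocyte-like one had 71 and 108 nuclei, at 9005 and 5712 CPM, and Cd74, H2-Ab1, H2-Aa and H2-Eb1 were among its leading genes. The 2 names thus cover different sets of nuclei at the 2 resolutions. The dendritic-like nuclei were 0.507% (0.364% to 0.687%) and 0.832% (0.644% to 1.06%) of lesional nuclei. They held 8.48% and 19.98% of the lesional member UMIs.

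Immune subcluster 6 (123 and 231 nuclei, unnamed, led by Pld5, Hectd2os and Myo18b) went the other way. It had 13 and 119 member UMIs, or 37.8 CPM (20.1 to 64.7) and 161 CPM (134 to 193), and a log2 ratio of 2.09 (1.26 to 3.04). One nucleus of the library labelled Cxcl12-cKO held 37 of these UMIs. Without the 2 highest nuclei of each library, 11 and 52 UMIs were left and the ratio was 1.13 (0.18 to 2.22). Of those 52 UMIs, 20 were of H2-DMa and 11 of H2-DMb1.

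The mice of a library were told apart by Xist and Y-linked UMIs, which assigned 607 and 489 myeloid-like nuclei to the female and male mouse of the library labelled control and 1048 and 464 to those of the library labelled Cxcl12-cKO. Summed members were at 1078 CPM (1026 to 1131) in the female and 533 CPM (494 to 574) in the male of the library labelled control. In the other library they were at 295 CPM (276 to 316) in the female and 335 CPM (305 to 367) in the male. Both control values lay above both Cxcl12-cKO values, with the control mice further apart than the others. The log2 ratio was −1.87 between the females and −0.67 between the males. Between the males, 4 of the 7 members were at least 1.5-fold lower, as were 3.78% of 7279 genes with at least 50 UMIs (3.23% were as much higher), and the Ciita interval there includes 0. Between the females 6 were lower, as were 7.01% of 9091 genes (5.51% higher). With dendritic-like nuclei counted the ratio between the males was −0.16 (−0.30 to −0.02). H2-DMa was at 28.7 and 27.1 CPM in the females and 23.7 and 25.1 CPM in the males. H2-DMb1 was at 37.9 and 14.6 CPM in the females, on 58 and 42 UMIs. In the males it was at 22.9 and 18.7 CPM, on 30 and 26 UMIs.

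In immune subcluster 4 the control mice had 1662 CPM (female) and 617 CPM (male) and the Cxcl12-cKO mice 304 and 238 CPM. Border-associated macrophage-like nuclei had 870 CPM (746 to 1008) in the control female, and 191, 181 and 189 CPM in the control male, the Cxcl12-cKO female and the Cxcl12-cKO male. There the difference between libraries was that of 1 mouse. In dendritic-like nuclei both males lay above both females, with 3157 and 4149 CPM in the females and 7594 and 9147 CPM in the males, from 9 to 28 nuclei per mouse. Within each sex the mouse labelled Cxcl12-cKO was the higher one, with intervals that overlap. The female and male held 130 and 121 member UMIs under the control label, of 408 in these nuclei, and 273 and 323 of 723 under the other. The rest lay in dendritic-like nuclei not assigned to 1 mouse, which the ratio between libraries includes. Monocyte-like nuclei had 8486 and 12450 CPM in the control female and male and 5188 and 7231 CPM in those labelled Cxcl12-cKO, from 13 to 24 nuclei per mouse. Mice of a genotype shared 1 library, so differences between females and males were not tested, and with 1 animal per sex and genotype the spread between animals cannot be told apart from either.

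**Figure D5:**
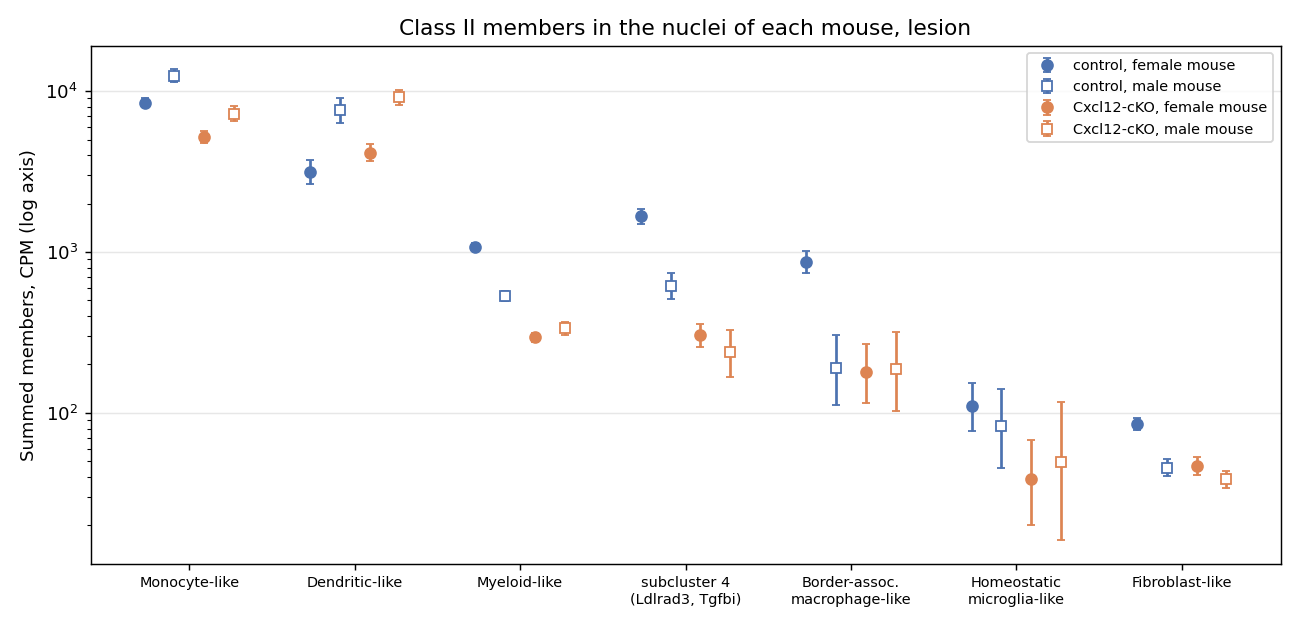
Summed members in CPM (log axis) in lesional nuclei assigned to each of the 4 mice, with filled circles for females, open squares for males and bars for exact 95% Poisson intervals. In myeloid-like nuclei the control mice (1078 and 533 CPM) lie above the Cxcl12-cKO mice (295 and 335 CPM), whereas in border-associated macrophage-like nuclei only the control female stands apart.

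In lesional fibroblast-like nuclei (4285 and 4151), the cells in which the Cre is expressed, summed members were at 66.1 CPM (62.0 to 70.4) and 42.0 CPM (38.8 to 45.4), a log2 ratio of −0.65 (−0.80 to −0.51). H2-Aa had 129 and 37 UMIs (−1.83, −2.40 to −1.29), H2-Eb1 84 and 31 (−1.46, −2.11 to −0.85), H2-Ab1 81 and 34 (−1.28, −1.90 to −0.68) and Cd74 328 and 165 (−1.02, −1.30 to −0.74). H2-DMa had 164 and 188 UMIs (0.17, −0.14 to 0.48) and H2-DMb1 86 and 102 (0.22, −0.21 to 0.65). Ciita was read in fibroblast-like groups named by markers. It had 18 and 30 UMIs in late inner-like (0.07, −0.82 to 1.00) and 57 and 32 in dural-like nuclei (−0.27, −0.95 to 0.38). In leptomeningeal-like nuclei it had 25 and 10 (−1.40, −2.62 to −0.29). Over all fibroblast-like nuclei the I-A and I-E chain genes and Cd74 were thus lower and the H2-DM pair was not, as in the myeloid-like nuclei for H2-DMa. One control nucleus held 63 of the 972 member UMIs, and without the highest nucleus of each library the ratio of the sum was −0.57 (−0.72 to −0.42). The fibroblast-like order turned when nuclei were classed one by one from their markers, at 70.2 and 76.1 CPM. By mouse the level was 85.7 and 45.7 CPM in the control female and male and 47.1 and 38.6 CPM in those labelled Cxcl12-cKO.

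These fibroblast-like levels stood beside UMIs of myeloid cells. The 8 myeloid markers summed to 49.0 CPM (45.5 to 52.7) and 55.0 CPM (51.3 to 58.9) in the same nuclei, with the library labelled Cxcl12-cKO not lower. A myeloid marker UMI was found in 17.1% of control fibroblast-like nuclei with a member UMI and in 11.3% of those without, and in 15.9% and 15.2% in the library labelled Cxcl12-cKO. UMIs of 3 or more members were found together in 26 of 4285 and 7 of 4151 nuclei. Median depth was 3707 and 3951 UMIs in fibroblast-like nuclei with a member UMI and 2959 and 2988 in those without. The part of myeloid RNA or doublets in the fibroblast-like level was not tested.

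Endothelial-like nuclei (317 and 277) had 158 CPM (137 to 181) and 104 CPM (87.9 to 122). Their myeloid markers summed to 1038 and 996 CPM, and 22.4% and 32.5% of them had UMIs of both sexes, against 8.31% and 10.3% of fibroblast-like nuclei. Astrocyte-like nuclei (613 and 646) had 49.5 CPM (41.5 to 58.7) and 29.8 CPM (24.1 to 36.5), with myeloid markers at 203 and 151 CPM. A lesional cluster led by bone matrix genes (328 and 85 nuclei) was higher under the label Cxcl12-cKO, at 38.0 CPM (26.0 to 53.7) and 97.0 CPM (60.1 to 148). These levels rest on 32 and 21 UMIs, and 1 nucleus held 8 of the 21. Lesional excitatory neuron-like nuclei had 14.3 CPM (11.7 to 17.2) and 39.5 CPM (32.9 to 47.1). Under the label Cxcl12-cKO, 2 of these nuclei held 87 of the 125 UMIs, and without the 2 highest nuclei of each library the values were 12.8 and 12.1 CPM.

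In the parenchyma neuron-like nuclei prevailed, and in them the family was near the lesional neuron level and its mix was different. Excitatory neuron-like nuclei (2182 and 2058) had 15.3 CPM (14.1 to 16.6) and 15.9 CPM (14.7 to 17.2), and the libraries did not differ beyond counting error. H2-DMa made up 61.5% (57.5% to 65.3%) and 61.0% (57.0% to 64.9%) of their member UMIs, with 373 and 374 UMIs, and Ciita made up 21.9% (18.7% to 25.4%) and 19.4% (16.4% to 22.8%). H2-Aa, H2-Ab1, H2-Eb1 and Cd74 together had 92 and 113 of the 607 and 613 member UMIs there. Their median depth was 17454 and 18406 UMIs, and 22.7% and 24.7% of them had a member UMI, or 1.70% and 1.76% after thinning. The parenchymal level of H2-DMa was 9.42 CPM (8.49 to 10.4) and 9.71 CPM (8.75 to 10.8) in excitatory and 9.89 CPM and 8.48 CPM in inhibitory neuron-like nuclei, against 24.1 and 26.1 CPM in lesional myeloid-like nuclei. H2-DMa was therefore the member whose level differed least between these classes. Parenchymal myeloid-like nuclei were few (31 and 46) and held 8 and 11 member UMIs, or 128 CPM (55.3 to 252) and 111 CPM (55.6 to 199). Parenchymal fibroblast-like nuclei were also few (60 and 62) and held 31 and 56 member UMIs. Their levels were 128 CPM (87.1 to 182) and 230 CPM (174 to 299), the opposite order to that of lesional fibroblast-like nuclei, with intervals that overlap.

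Of the other class II genes, none of 5 reached 50 UMIs in lesional myeloid-like nuclei. H2-Ob, which encodes a chain of the H2-DM inhibitor H2-O, had 12 and 9 UMIs in dendritic-like nuclei. H2-Ea, the alpha chain of I-E, which is disrupted in the C57BL/6 strain, had no UMI in the kept lesional nuclei.

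The genes around the family were mostly similar between libraries in lesional myeloid-like nuclei. For comparison, 3.73% of all 11421 genes with at least 50 UMIs there were at least 1.5-fold lower and 2.98% as much higher. Among 22 genes of class II transcription and interferon-γ signalling, 19 had at least 50 UMIs, of which 2 were at least 1.5-fold lower and 1 was higher, with a median log2 ratio of −0.07. Irf1 (224 and 205 UMIs, −0.69, −0.97 to −0.41), a transcription factor of the interferon-γ response that acts upstream of Ciita, was among the lower ones. Rfxap, a subunit of the RFX complex that binds class II promoters, was the higher one on 17 and 40 UMIs (0.67, −0.18 to 1.58), and its interval includes 0. By mouse, Irf1 was at 76.4 and 35.8 CPM in the control and Cxcl12-cKO females and at 34.4 and 28.7 CPM in the males. For Irf1 the control female was the highest of the 4 mice, as it was for the summed members.

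Of 22 genes of antigen uptake, processing and class II turnover, all had at least 50 UMIs and none was 1.5-fold apart, with a median log2 ratio of −0.11. Over all 11421 genes the shares were 3.73% lower and 2.98% higher, so a list of this size may hold none. Among the 22 genes, 2 are given here. They were Ctss, a protease that degrades the invariant chain (819 and 740 CPM), and Marchf1, a ubiquitin ligase that removes class II from the surface (434 and 393 CPM). These were chosen after their values were seen. On the T cell side, 2 of 12 genes reached 50 UMIs and neither was 1.5-fold apart. Ifng, which encodes interferon-γ, had 3 and 1 UMIs in all kept lesional nuclei, of which 0 and 1 were in the 97 and 94 T cell-like subcluster nuclei, too few to compare.

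Plbd1, Gpr141, Gm2a, Syngr2 and Atox1 had the pattern most like that of the summed members over 37 classes and subclusters of both libraries, among 16374 genes with at least 200 UMIs. Pearson's r on log2(CPM + 1) was 0.912, 0.872, 0.861, 0.859 and 0.847. The members themselves had values from 0.791 for H2-DMa to 0.985 for Cd74, each of which is part of the sum. The points share libraries and depth, and r is a description. Plbd1 was at 619 and 534 CPM in dendritic-like and 85.7 and 91.3 CPM in monocyte-like nuclei.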

How the data were processed

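Nuclei were captured with the 10x Genomics Chromium 3′ v3.1 chemistry. The authors ran Cell Ranger 9.0.0 on GRCm39 per the submitters' processing notes, and deposited 4 matrices of UMI counts (whole numbers, not normalized), 1 per region and library. The counting of intronic reads is not stated in the sources used. Deposited totals were 34769874 and 31995274 UMIs in the lesion (control, then Cxcl12-cKO), and 62701074 and 62749811 in the parenchyma.

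Barcodes in the outer 2.5% by UMIs or genes, or the top 2.5% by mitochondrial share, were removed, leaving 21743 of 23489. Clustering used scanpy 1.11.5 (Leiden, resolution 0.25, 3000 variable genes, 30 components) without class II, interferon-γ, Cxcl12 and sex-linked genes, and at resolution 1.0 over lesional immune nuclei. Each cluster was named by its best-scoring class, scored by the mean log2 fold of the class markers (at least 0.25, with at least 3 markers in 10% of nuclei). These thresholds and resolution 1.0 were set after clusters were seen, and differences from the study's types may come from these names. Immune subcluster 10 scored as fibroblast but was led by endothelial genes and stayed unnamed, and a cluster led by bone matrix genes was kept out of the fibroblast class (328 and 85 nuclei).

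Scrublet marked 27 and 15 lesional barcodes and so had not worked, and doublets were not removed. UMIs were summed per class and scaled to its total (CPM), with exact Poisson intervals, Clopper-Pearson intervals for shares and conditional binomial intervals for ratios. A ratio counted as called at 1.5-fold with at least 50 UMIs. The ratio step was tested on simulated data with independent Poisson counts for each gene. That test cannot show how the intervals hold where a few nuclei carry most of the UMIs. The members and lists were chosen with earlier results of these data known. Named besides the members were list genes past that fold and the 5 genes of most similar pattern. One gene that this rule names is not reported here. Python 3.11.15, numpy 2.4.6, scipy 1.17.1 and pandas 2.3.3 were used.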

Additional observations from a re-analysis of the deposited data

How the results depend on the processing

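The log2 ratio of summed members in lesional myeloid-like nuclei was below 0 under all 15 alternatives. Of 168 alternative values, 86 were sorted as unchanged and 82 as moved, by whether they lay inside the counting interval of the main value. The 15 alternative counts of members at least 1.5-fold lower have no interval and were sorted by a 1.5-fold change from the main count. The order of the libraries turned for the held share where the second of its pair is higher below, for fibroblast-like nuclei assigned by their own markers (70.2 and 76.1 CPM) and for parenchymal excitatory neuron-like nuclei in males (15.9 and 14.8 CPM). The alternatives chosen after seeing the data were counting dendritic-like nuclei, leaving out the highest nucleus, leaving out H2-DMa and the lower subclustering resolution. Pairs give the library labelled control first. Levels are summed CPM of myeloid-like nuclei, "positive" is their share with a member UMI, and "held" is their share of lesional member UMIs. At Leiden resolution 0.5 the log2 ratio was −1.61, the levels 414 and 136 and the held shares 31.2% and 20.2%. Without the percentile filter they were −0.91, 865 and 462, and 69.2% and 71.7%, with 27.1% and 22.1% positive. With nuclei assigned by their own markers, the control level was 795, 27.1% and 22.1% were positive and the control held share was 63.6%. With class II genes kept in clustering the ratio was −0.94, the levels 848 and 442, the held shares 68.5% and 70.3%, and 21.9% of Cxcl12-cKO nuclei were positive. Without nuclei of both sexes the ratio was −1.10, the Cxcl12-cKO level 349 and its held share 52.2%. Without the highest Scrublet scores the ratio was −0.94 (from −0.935), the levels 858 and 449, the held shares 75.1% and 77.6% and lesional excitatory neuron-like nuclei labelled Cxcl12-cKO had 12.3 CPM. In female nuclei the ratio was −1.87, the levels 1078 and 295, the held shares 64.4% and 54.1%, the control positive share 29.3% and the fibroblast-like levels 85.7 and 47.1 CPM. In male nuclei the ratio was −0.67, the control level 533, 19.6% and 17.7% were positive, the Cxcl12-cKO held share was 41.5%, and the levels were 45.7 and 38.6 CPM in fibroblast-like and 23.5 CPM in Cxcl12-cKO excitatory neuron-like nuclei. As a mean over nuclei the ratio was −1.10, the levels 566 and 264, and parenchymal control excitatory neuron-like nuclei had 16.9 CPM. Thinned to 1000 UMIs, the levels were 583 and 248, 16.5% and 10.0% were positive, and excitatory neuron-like nuclei had 59.3 CPM (lesion, Cxcl12-cKO) and 17.0 and 17.6 CPM (parenchyma). Without the monocyte-like subcluster the levels were 312 and 134. In homeostatic microglia-like nuclei alone the ratio was −0.73, the levels 104 and 62.9, and 11.99% and 10.7% were positive. The count of members at least 1.5-fold lower was 0 there because no member had 50 UMIs, so it shows nothing about them. With dendritic-like nuclei counted the ratio was −0.93, the levels 834 and 437, the held shares 67.5% and 69.8% and 21.8% of Cxcl12-cKO nuclei were positive. Without the highest nucleus of each library the ratio was −1.35, the levels 654 and 256 and the held shares 55.9% and 44.3%. Immune subclustering at resolution 0.5 gave monocyte-like levels of 9005 and 5712 CPM (71 and 108 nuclei) and dendritic-like levels of 2054 and 488 CPM (10 and 22 nuclei). The cause of these shifts was not tested.

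No paired test was made, because each genotype was 1 library, with no replicate to leave out. The ratios between mice of the same sex are values from 1 mouse each, with no test. The depth limits single members in small subclusters, where many have under 50 UMIs.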
